A study of Mus musculus with 23 samples.

Results

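A set of 10 genes of melanin synthesis and the pigment cell was followed through 23 poly(A) RNA libraries of mouse retinal organoids: Tyr, Tyrp1, Dct, Pmel, Mlana, Mitf, Slc45a2, Slc24a5, Oca2 and Gpr143. They were picked by name, from the 52143 genes in the count table. Retinal organoids are balls of retina-like tissue grown from stem cells. Per the labels, all libraries came from 1 induced pluripotent stem cell clone, made from embryonic day 14.5 fibroblasts of wild-type mice with the Nrl-GFP rod reporter by doxycycline-inducible lentiviral Oct3/4, Sox2, Klf4 and c-Myc. The labels say that the neural retina was cut with needles from intact organoids, 12 being given for the later stages, so the RNA is of pooled and dissected tissue. The 3 media were compared from day 10: docosahexaenoic acid (DHA) at 26 µM, linoleic acid (LA) at 26 µM, both bound to bovine serum albumin (BSA), and BSA alone. DHA and LA are both polyunsaturated fatty acids, and DHA has the longer chain and more double bonds. At day 32 (D32), FGF1 had been given at 200 ng/ml from day 26 to DHA (2 libraries), LA (3 libraries) and BSA (3 libraries), and D32 DHA, LA and BSA without FGF1 had 3 libraries each. At day 26 (D26), DHA, LA and BSA had 2 libraries each. Every culture had 9-cis retinal, taurine and insulin-like growth factor 1 up to D26, and non-essential amino acids, B27 without vitamin A and 2% fetal serum from D26. D32 with FGF1 against D26 therefore holds age, the change of base medium and FGF1 together, which cannot be told apart.

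Melanin is made in melanosomes, organelles of the retinal pigment epithelium (RPE) behind the retina and of melanocytes, which come from the neural crest. Tyrosinase (Tyr) performs the rate-limiting oxidation of tyrosine, and dopachrome tautomerase (Dct) and Tyrp1 act on later intermediates. Pmel forms the fibrils on which melanin is laid down, Mlana is a melanosomal membrane protein, Slc45a2, Slc24a5 and Oca2 are transporters that set the ion content and acidity of the organelle, and Gpr143 is a receptor that limits melanosome size. Mitf is the transcription factor of the pigment cell; it binds an E-box, of which a longer form in pigment gene promoters is called the M-box. In the developing eye the outer layer of the optic cup becomes RPE and the inner layer neural retina.

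The promoters of the 3 melanogenic enzymes and of Slc24a5 are shown because they hold the 7-letter sequence TCATGTG, which contains the E-box that Mitf binds, on either strand. They are RefSeq windows of the GRCm38.p6 build from 250 bases before to 50 bases after the start, 5′ to 3′ on the gene's strand, with TCATGTG or its reverse complement CACATGA in capitals. The Tyr window is chr7:87493463-87493762 on the minus strand, the Tyrp1 window chr4:80833963-80834262 on the plus strand, the Dct window chr14:118052197-118052496 on the minus strand and the Slc24a5 window chr2:125067877-125068176 on the plus strand.
Tyr: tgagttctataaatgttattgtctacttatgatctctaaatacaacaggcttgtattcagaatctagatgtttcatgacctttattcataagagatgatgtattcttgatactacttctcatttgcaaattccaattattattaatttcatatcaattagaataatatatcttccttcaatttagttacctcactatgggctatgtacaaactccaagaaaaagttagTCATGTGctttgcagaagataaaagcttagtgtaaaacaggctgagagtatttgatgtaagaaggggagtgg
Tyrp1: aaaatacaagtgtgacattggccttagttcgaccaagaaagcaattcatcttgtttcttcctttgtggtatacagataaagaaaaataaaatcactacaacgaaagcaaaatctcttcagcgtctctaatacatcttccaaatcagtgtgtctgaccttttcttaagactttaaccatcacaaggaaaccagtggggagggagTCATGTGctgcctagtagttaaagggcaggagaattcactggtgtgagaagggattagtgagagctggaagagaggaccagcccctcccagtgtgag
Dct: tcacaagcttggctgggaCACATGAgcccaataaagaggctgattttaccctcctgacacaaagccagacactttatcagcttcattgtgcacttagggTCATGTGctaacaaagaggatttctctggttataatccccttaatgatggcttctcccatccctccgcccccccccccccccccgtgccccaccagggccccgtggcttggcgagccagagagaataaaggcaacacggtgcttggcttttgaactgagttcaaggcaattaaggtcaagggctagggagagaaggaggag
Slc24a5: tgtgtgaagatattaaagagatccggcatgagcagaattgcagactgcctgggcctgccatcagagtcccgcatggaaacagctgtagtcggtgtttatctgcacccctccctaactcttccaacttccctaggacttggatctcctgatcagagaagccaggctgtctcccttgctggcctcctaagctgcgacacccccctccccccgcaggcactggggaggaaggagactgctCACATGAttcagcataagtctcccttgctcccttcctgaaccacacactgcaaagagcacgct
RefSeq windows were matched for 6 of the 10 genes (8 windows, of which 3 are of Mitf). TCATGTG on either strand was in the windows of Tyr, Tyrp1, Dct and Slc24a5 and not in those of Mitf and Oca2, and 3.77% of 32851 mouse promoter windows of the same length held it (1239 windows). Relative to the start base, the first capital letter as printed lies at -22 in Tyr, -47 in Tyrp1, -151 in Dct and -13 in Slc24a5. The copy in Slc24a5 is CACATGA, on the other strand, and Dct has a further copy on the other strand at -232. The 10 letters GTCATGTGCT are the longest run around TCATGTG that the Tyr, Tyrp1 and Dct windows share, and stood in 61 windows (0.186%). This run was derived from these windows, so its presence in them was fixed beforehand and its share is no test of enrichment. The 6-letter core CATGTG, which lies within TCATGTG, was in 14.2% of windows. These are matches of letters and show no binding.

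The 23 libraries formed 2 sets in depth. The 12 deeper ones are all D26 libraries and replicates 1 and 2 of each D32 group with FGF1, with total counts of 16029580 to 20510550 and a mitochondrial share of 3.02% to 4.24%. The 11 shallower ones are every D32 library that had no FGF1, plus the replicates numbered 3 of the LA and BSA media with FGF1, with totals of 10405663 to 11888224 and a mitochondrial share of 5.55% to 12.5%. Groups were compared only within a set. Within the shallower set, replicate 1 of each D32 group without FGF1 and both libraries with FGF1 were left out of the authors' normalized table, and these 5 held 26.9 to 62.3 CPM (counts scaled to the size of the library) of the Y-linked gene Eif2s3y, against 0.0543 to 0.880 CPM in the other 18 libraries. Whether these 5 share the clone of the other 18 was not tested, so results from the shallower set are given with and without them where the design allows. CPM values are scaled by the trimmed mean of M-values (TMM) within a set. The dissected tissue carried rod markers throughout: the summed CPM of 12 rod genes was 5453 to 15518 in the deeper set and 5111 to 10106 in the shallower set.

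Read per transcript length (TPM, which scales transcript counts by length and library), Dct and Slc24a5 led the pigment genes. Over the deeper libraries the median level was 30.2 TPM for Dct (10.0 to 58.0), 17.6 for Slc24a5 (14.3 to 23.7), 12.6 for Tyrp1 (0.469 to 43.8) and 11.6 for Pmel (0.852 to 56.7). Mitf had a median of 4.84 TPM (2.26 to 6.40) and Tyr of 2.29 TPM (0.0800 to 6.59). Oca2, at 0.672 TPM, Mlana, at 0.455 TPM, Slc45a2, at 0.162 TPM, and Gpr143, at 0.0755 TPM, were low. All 9 pairs of neighbours in this order overlapped in range, so only steps across several ranks stand clear; every deeper library had more Dct TPM and more Slc24a5 TPM than any had of Mitf. In the shallower libraries Slc24a5 led with a median of 29.1 TPM, followed by Dct with 18.7, Tyrp1 with 9.74, Mitf with 4.43, Pmel with 3.04 and Tyr with 2.58 TPM, and the 9 neighbouring pairs again overlapped.

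The rarest members are near the limit of detection. Gpr143 reached at most 7.8 counts and was at 0 in 10 of 23 libraries; Mlana was at 0 in 7, all of them shallower, Slc45a2 in 2 and Oca2 in 1. A count of 0 allows up to 3 counts, which is 0.146 to 0.187 CPM in the deeper and 0.252 to 0.288 CPM in the shallower libraries (counting error only). The filter on low counts kept 9 members in the deeper set, all but Gpr143, and 7 in the shallower set, without Mlana, Slc45a2 and Gpr143.

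Slc24a5, the melanosomal exchanger of calcium, stood apart from the other members. Among the deeper libraries its highest level was 1.47 times its lowest, against 131 times for Tyr, 114 times for Tyrp1, 79.0 times for Pmel, 6.89 times for Dct and 3.37 times for Mitf. In the annotation, 921 of its 2330 exonic bases (39.5%) overlap exons of Myef2 on the opposite strand. Its count was 8.03% to 11.2% of that of Myef2 in the deeper and 7.88% to 13.1% in the shallower libraries. The kit keeps strand, but whether the counting used it is not given in the sources used here, so reads of the 2 genes may not be separate. Pmel shares 105 exonic bases (4.58%) with Dgka and 34 (1.48%) with Cdk2, also on the opposite strand.

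**Figure D1:**
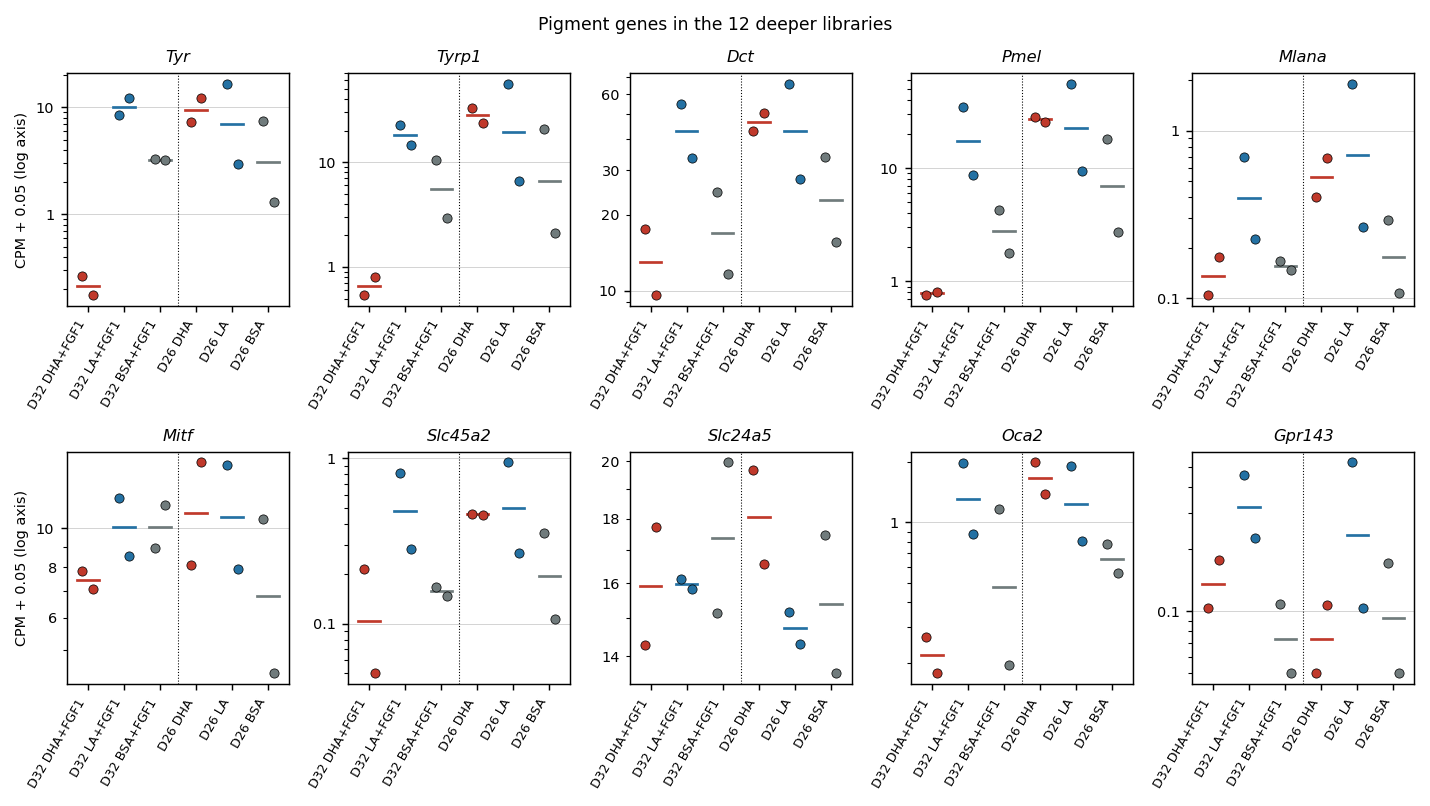
Level of each pigment gene in the 12 deeper libraries, as CPM plus 0.05 on log axes that differ between panels; points are libraries (2 per group), bars are means on the log scale, red is DHA, blue LA and grey BSA, and the dotted line parts D32 with FGF1 from D26. Tyr, Tyrp1 and Pmel are lowest in both D32 DHA with FGF1 libraries, and Slc24a5 is nearly level.

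Among the enzymes, Tyr had 0.217 and 0.127 CPM in D32 DHA with FGF1, 8.36 and 12.1 in D32 LA with FGF1, and 3.23 and 3.18 in D32 BSA with FGF1, against 7.31 and 12.2 CPM in D26 DHA, 16.6 and 2.92 in D26 LA, and 7.44 and 1.25 in D26 BSA. Both DHA libraries with FGF1 lay below each of the other 10, and the media overlapped at D26. Those values stand for 6 counts summed over both libraries (exact Poisson 95% interval 2.20 to 13.1), against 334 (299.1 to 371.8) in D26 DHA. Tyrp1 had 0.489 and 0.760 CPM in D32 DHA with FGF1, 22.7 and 14.6 in D32 LA with FGF1, and 10.5 and 2.89 in D32 BSA with FGF1, against 33.0 and 23.6 in D26 DHA, 55.7 and 6.54 in D26 LA, and 20.7 and 2.04 in D26 BSA. Again both DHA libraries with FGF1 were below the other 10, while the D26 LA and D26 BSA pairs each spread widely. Dct had 17.6 and 9.56 CPM in D32 DHA with FGF1, 54.7 and 33.6 in D32 LA with FGF1, and 24.4 and 11.6 in D32 BSA with FGF1, against 42.7 and 50.4 in D26 DHA, 65.8 and 27.7 in D26 LA, and 33.6 and 15.6 in D26 BSA. For Dct the DHA libraries with FGF1 overlapped the BSA libraries with FGF1 and D26 BSA.

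Pmel, the fibril protein, followed the enzymes: 0.706 and 0.760 CPM in D32 DHA with FGF1, 34.7 and 8.68 in D32 LA with FGF1, and 4.23 and 1.74 in D32 BSA with FGF1, against 28.5 and 25.7 in D26 DHA, 55.8 and 9.34 in D26 LA, and 18.2 and 2.67 in D26 BSA. The DHA libraries with FGF1 were the lowest 2 of the 12. Mlana reached 1.86 CPM in D26 LA replicate 1 and was between 0.0543 and 0.643 CPM in the other 11 libraries, with 3 counts summed over D32 DHA with FGF1, against 17 over D26 DHA.

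Oca2, a transporter of the melanosome membrane, had 0.217 and 0.127 CPM in D32 DHA with FGF1, 1.93 and 0.821 in D32 LA with FGF1, and 1.12 and 0.145 in D32 BSA with FGF1, against 1.95 and 1.33 in D26 DHA, 1.86 and 0.756 in D26 LA, and 0.726 and 0.511 in D26 BSA. The second BSA library with FGF1 lay between both DHA libraries with FGF1. Slc45a2, a melanosomal transporter as well, ranged over 0 to 0.900 CPM, with 3 counts over D32 DHA with FGF1, against 14 over D26 DHA.

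Mitf varied less over these libraries than the enzymes and Pmel, which it is known to drive. It had 7.77 and 7.03 CPM in D32 DHA with FGF1, 11.9 and 8.50 in D32 LA with FGF1, and 8.87 and 11.4 in D32 BSA with FGF1, against 8.08 and 14.5 in D26 DHA, 14.3 and 7.89 in D26 LA, and 10.5 and 4.31 in D26 BSA. Both DHA libraries with FGF1 stood within the D26 range. The count of Mitf was 35.8 to 55.5 times that of Tyr in D32 DHA with FGF1 and 0.700 to 3.58 times in the other 10 deeper libraries. Likewise Dct was 75.5 to 80.8 times Tyr in D32 DHA with FGF1 and 2.77 to 12.5 times in the others. In D32 DHA with FGF1 both ratios rest on 3.62 and 2.44 estimated counts of Tyr, so their size is loosely known.

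One library, D26 LA replicate 1, was the highest of the 12 for 7 members (Tyr, Tyrp1, Dct, Pmel, Mlana, Slc45a2 and Gpr143). The share of all genes that were highest in this library was not counted. Mlana, Slc45a2 and Gpr143 reached at most 30.8, 15.1 and 7.8 counts in any library. The summed CPM of all 10 members was 36.3 to 41.5 in D32 DHA with FGF1, 94.7 to 152 in D32 LA with FGF1, and 51.0 to 67.7 in D32 BSA with FGF1, against 142 to 145 in D26 DHA, 69.8 to 228 in D26 LA, and 40.0 to 109 in D26 BSA. The D26 DHA pair was close together, and the D26 LA and D26 BSA pairs spread widely. In bulk tissue, fewer pigment cells and less pigment RNA per cell cannot be told apart.

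In DHA medium, 5 pigment genes fell at D32 with FGF1 relative to D26: Tyr, Tyrp1, Pmel, Oca2 and Dct. In edgeR's quasi-likelihood test over all 20111 genes, Benjamini-Hochberg adjusted, 5 of the 9 members tested were lower and 0 higher, while 4.28% of all genes were lower. The log2 fold change was -5.74 for Tyr (SE 1.09, adjusted p = 0.00699), -5.50 for Tyrp1 (SE 1.28, adjusted p = 0.0187) and -5.20 for Pmel (SE 1.15, adjusted p = 0.0154). Dct changed less, with -1.78 (SE 0.50, adjusted p = 0.0449), as did Oca2, with -3.18 (SE 0.90, adjusted p = 0.0441). The fold of Tyr rests on 6 counts, so its size depends on the fit. Mitf, with -0.61 (95% interval -1.55 to 0.32, adjusted p = 0.417), and Slc24a5, with -0.18 (-0.65 to 0.28), did not pass. For 8 of the 9, all but Slc24a5, both D32 libraries were below both D26 libraries, as were 26.3% of all genes. The median log2 fold change of the 9 was -2.40, against -0.0127 for all genes.

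The calls in DHA medium rest on 2 libraries a group. With D32 DHA with FGF1 replicate 2 left out, 0 members passed, with replicate 1 left out 1 did; without D26 DHA replicate 1 there were 2 and without replicate 2 there was 1, although Tyr kept a log2 fold change of -6.19 to -5.33 with any 1 of the 12 libraries left out. Limma's voom test with sample weights called 0 of the 9, and sums of the transcript table called 3 by edgeR.

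In LA and in BSA medium no pigment gene passed. The edgeR test called 0 of 9 members in LA, where 5.16% of all genes were called in either direction, and 0 of 9 in BSA, where 6.83% were. At an unadjusted p under 0.05 there were 0 members in LA (19.7% of genes) and 0 in BSA (21.9% of genes), and DESeq2 and voom also called 0. Tyr had a log2 fold change of 0.08 in LA (95% interval -1.52 to 1.68) and -0.43 in BSA (-2.13 to 1.26), and that of Pmel was -0.58 in LA (-2.46 to 1.29) and -1.82 in BSA (-3.93 to 0.29). These intervals leave room for several-fold changes, so similar levels are not shown. Averaged over the 3 media, Tyr fell by 2.03 on the log2 scale (SE 0.52, adjusted p = 0.0125), Tyrp1 by 2.34 (SE 0.63, adjusted p = 0.0155) and Pmel by 2.53 (SE 0.58, adjusted p = 0.00673) in edgeR's test. That is 3 of 9 members lower, where 14.1% of all genes were lower. Dct, at -0.77 (adjusted p = 0.0622), Oca2, at -1.04 (adjusted p = 0.126), and Mitf, at -0.09 (adjusted p = 0.815), did not pass by the same test. Voom called 1 of the 9, and leaving out D26 LA replicate 2 or D32 BSA with FGF1 replicate 1 gave 5.

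**Figure D2:**
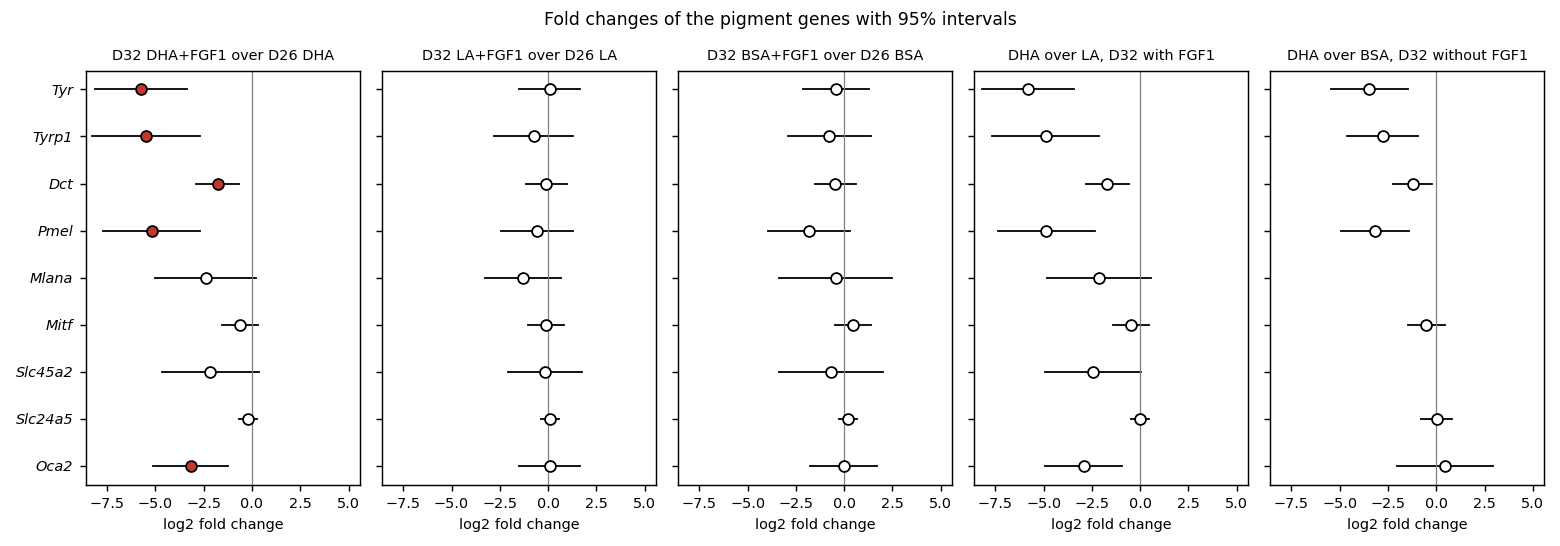
Log2 fold changes (x axis) of the pigment genes with 95% intervals in 5 comparisons, each titled with its direction; filled points passed an adjusted p of 0.05 in edgeR's test. All filled points are in D32 DHA with FGF1 over D26 DHA, where Tyr is at -5.74, and the interval of Mitf includes 0 in all 5.

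At D32 with FGF1, all 8 members other than Slc24a5 were lower in DHA than in LA at the same dose and time, library by library, and 20% of all genes did the same. In edgeR's test, adjusted over all genes, 0 of the 9 passed (0.00994% of all genes did), with 5 lower at an unadjusted p under 0.05, where 5.01% of genes were. Tyr had a log2 fold change of -5.82 (SE 1.09, adjusted p = 0.178), Pmel of -4.88 (SE 1.15, adjusted p = 0.262), Tyrp1 of -4.90 (SE 1.28, adjusted p = 0.322), Dct of -1.70 (adjusted p = 0.401) and Oca2 of -2.93 (adjusted p = 0.441). DESeq2 called 3 of them, with adjusted p = 0.000308 for Tyr, 0.00847 for Pmel and 0.0208 for Tyrp1, and voom called 0. A fit of edgeR with the replicate number as a block called Pmel (adjusted p = 0.0459). For Mitf the difference was -0.46 (95% interval -1.40 to 0.48). The 6 pairs of DHA and LA media with their vehicle were compared at D26 and at D32 with FGF1, and each p was adjusted over the genes of its own pair.

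Against BSA with FGF1, DHA with FGF1 was lower in both libraries for Tyr, Tyrp1, Pmel and Mitf (4 of 9 members; 15% of all genes). Again 0 of 9 passed edgeR's test, as did 0% of all genes, with 2 lower at an unadjusted p under 0.05 (1.78% of genes) and 0 by DESeq2 or voom. The log2 fold change was -4.14 for Tyr (95% interval -6.60 to -1.68) and -3.41 for Tyrp1 (-6.23 to -0.58). LA with FGF1 was above BSA with FGF1 in both libraries for 6 of 9 members (14.6% of all genes), with Pmel at 2.88 (0.76 to 5.00, edgeR adjusted p = 0.916) and Dct with an interval of 0.22 to 2.38. None of the 9 passed, 0.0149% of all genes did, 2 members were higher at an unadjusted p under 0.05 (2.89% of genes), and DESeq2 and voom called 0.

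At D26 the values of the media stood in another order, though no member passed edgeR's test in any pair. DHA was above BSA in both libraries for Tyrp1, Dct, Pmel, Mlana, Slc45a2 and Oca2 (6 of 9 members, 12.3% of all genes), with a log2 fold change of 1.32 for Tyrp1 (95% interval -0.77 to 3.41), 1.38 for Pmel (-0.56 to 3.31) and 0.92 for Dct (-0.15 to 1.99). DHA against LA lay between -1.04 (Mlana) and 0.33 (Oca2) over the 9 members, with wide intervals (-2.97 to 0.89 for Mlana). LA against BSA had its largest value in Mlana (2.74, 0.47 to 5.02; unadjusted p = 0.0222 by edgeR), the one member with an unadjusted p under 0.05 in the 3 pairs. That unadjusted level was passed by 3.17% of all genes in DHA against LA, by 1.25% in DHA against BSA and by 1.77% in LA against BSA. EdgeR, DESeq2 and voom called 0 of 9 members in each pair, and edgeR called 0% of all genes in each.

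The change of the DHA effect between stages was tested as an interaction. For DHA against LA, D32 with FGF1 minus D26, the log2 difference was -5.82 for Tyr (SE 1.34, adjusted p = 0.493), -4.77 for Tyrp1 (SE 1.59, adjusted p = 0.618) and -4.61 for Pmel (SE 1.43, adjusted p = 0.585) in edgeR. None of 9 passed, as did 0% of all genes, and 5 were lower at an unadjusted p under 0.05 (2.9% of genes). For DHA against BSA, a comparison added after the values were seen, Tyr had -5.31 (SE 1.37), Tyrp1 -4.73 (SE 1.61) and Pmel -3.38 (SE 1.50). None passed in edgeR, 0% of all genes did, and 4 members were lower at an unadjusted p under 0.05 (1.05% of genes). DESeq2 and voom called 0 in both. The fall in DHA medium is thus not shown to differ from that in the other media.

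**Figure D3:**
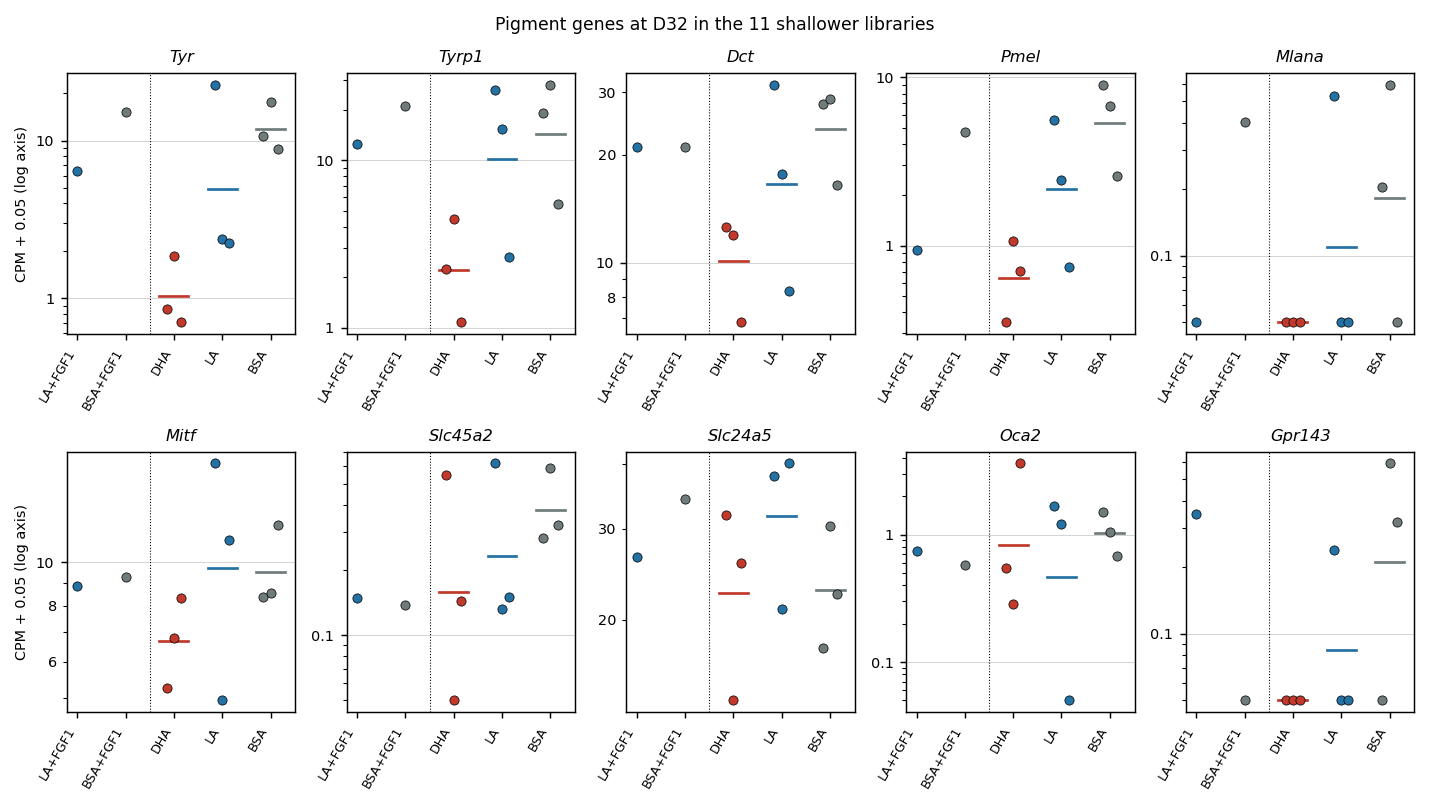
Level of each pigment gene in the 11 shallower libraries at D32, as CPM plus 0.05 on log axes that differ between panels; points are libraries, bars are means on the log scale of the groups of 3, and the dotted line parts the 2 libraries with FGF1 from those without. The 3 DHA libraries lie at 0.657 to 1.80 CPM of Tyr, below the other 8.

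The shallower libraries gave a separate look at DHA at D32 in the absence of FGF1. Tyr had 0.801, 1.80 and 0.657 CPM in D32 DHA, 22.4, 2.31 and 2.19 in D32 LA, and 10.6, 17.4 and 8.78 in D32 BSA. Tyrp1 had 2.20, 4.38 and 1.03 CPM in DHA, 26.2, 15.3 and 2.59 in LA, and 19.1, 27.9 and 5.43 in BSA. All DHA libraries were below all BSA libraries for both enzymes, and for Tyr also below all LA libraries. Pmel had 0.300, 1.02 and 0.657 CPM in DHA, 5.51, 2.40 and 0.697 in LA, and 8.94, 6.67 and 2.54 in BSA. Dct had 12.5, 11.9 and 6.76 CPM in DHA, 31.3, 17.6 and 8.26 in LA, and 27.7, 28.7 and 16.5 in BSA. Mitf had 5.21, 6.73 and 8.26 CPM in DHA, 16.5, 4.88 and 11.2 in LA, and 8.32, 8.47 and 12.0 in BSA. Pmel, Dct and Mitf were likewise lower in every DHA than in every BSA library, by the least margin for Mitf, while LA overlapped DHA. Oca2 had 0.501, 0.235 and 3.57 CPM in DHA, 1.61, 1.16 and 0 in LA, and 1.46, 0.992 and 0.634 in BSA, and Slc24a5 had 31.8, 13.9 and 25.7 CPM in DHA, 37.9, 20.9 and 40.0 in LA, and 17.6, 30.3 and 22.4 in BSA. In neither did the media separate.

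For DHA against BSA without FGF1, 5 of the 7 members tested did not overlap and were lower in DHA, against 2.86% of all genes. The log2 fold change was -3.46 for Tyr (95% interval -5.44 to -1.49), -3.16 for Pmel (-4.91 to -1.41), -2.77 for Tyrp1 (-4.61 to -0.93), -1.22 for Dct (-2.23 to -0.22) and -0.51 for Mitf (-1.46 to 0.44). In edgeR's test, adjusted over 19484 genes, 0 of 7 passed, as did 0% of all genes, with 4 lower at an unadjusted p under 0.05 (0.898% of genes). DESeq2 and voom called 0 as well. In the libraries kept by the authors, 2 per group, the values were -3.39 for Tyr, -2.61 for Tyrp1, -2.44 for Pmel and -1.27 for Dct.

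DHA against LA without FGF1 gave -3.01 for Tyr (95% interval -4.97 to -1.06), -2.52 for Tyrp1 (-4.35 to -0.69) and -2.09 for Pmel (-3.81 to -0.36) on the log2 scale. Of 7 members 0 passed in edgeR, as did 0% of all genes, 3 were lower at an unadjusted p under 0.05 (0.98% of genes), DESeq2 and voom called 0, and Tyr alone did not overlap (2.22% of genes lay wholly below). This fit does not pair same-numbered DHA and LA libraries, and edgeR with the replicate number as a block called 0 members as well. Without the libraries left out by the authors, LA replicate 1 among them, Tyr was at -0.86, Tyrp1 at -1.71 and Pmel at -0.88. LA against BSA gave -0.45 for Tyr (-2.19 to 1.29) and -1.08 for Pmel (-2.66 to 0.50), and by edgeR 0 of 7 passed, 0 had an unadjusted p under 0.05 (1.42% of genes), 0 did by DESeq2 or voom and 0% of all genes passed. In the libraries kept by the authors, LA against BSA was at -2.53 for Tyr and -1.55 for Pmel. The ratio of Dct to Tyr counts was 6.61 to 15.6 in D32 DHA, 1.40 to 7.61 in D32 LA and 1.65 to 2.63 in D32 BSA.

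FGF1 at D32 could be set against its absence only through 1 LA and 1 BSA library with FGF1, both of them left out by the authors and taken to vary like the groups of 3. Tyr had 6.33 CPM in LA with FGF1 and 15.2 in BSA with FGF1, Tyrp1 12.4 and 20.9, Dct 21.0 and 21.0, Pmel 0.891 and 4.69, and Mitf 8.81 and 9.20. All lay within the span of the LA and BSA libraries without FGF1. The log2 fold change over no FGF1, averaged over both media, was -0.09 for Tyr (95% interval -1.84 to 1.66), -1.02 for Pmel (-2.73 to 0.69) and -0.18 for Mitf (-1.14 to 0.77). By edgeR 0 of 7 members passed, 0 had an unadjusted p under 0.05 (4.78% of genes) and 0% of all genes passed, and DESeq2 and voom called 0 members. Both libraries with FGF1 hold the Y-linked RNA, so no value without them can be had. A fit of the left-out libraries alone set them against replicate 1 of BSA, LA and DHA without FGF1, and gave -0.05 for Tyr and -0.80 for Pmel. The DHA library in that reference has no counterpart with FGF1 and held 0.801 CPM of Tyr and 0.300 of Pmel. These values therefore hold medium and FGF1 together.

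**Figure D4:**
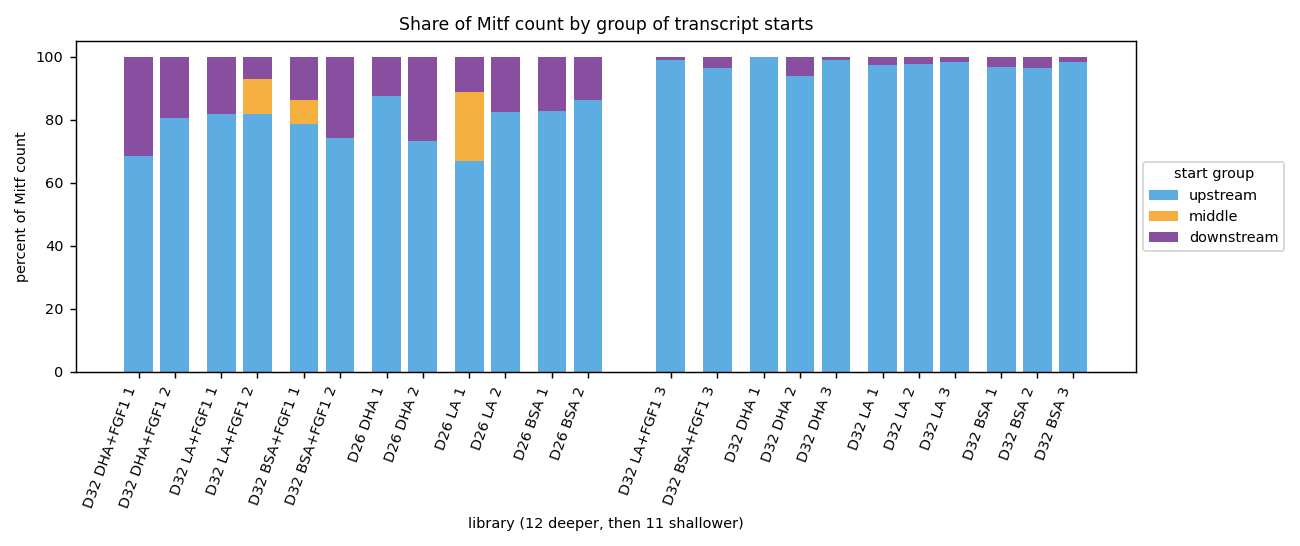
Percent of the Mitf count of each library (y axis) in transcripts that begin at the upstream, middle or downstream annotated starts; the 12 deeper libraries stand left of the 11 shallower ones, and bars are stacked shares that sum to 100. The upstream share lies at 66.8% to 87.5% in the deeper and 93.8% to 100% in the shallower libraries.

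Mitf is transcribed from several promoters, of which the most downstream one is known to serve melanocytes. The start groups below are named by position only, and their shares are not a measure of a cell type. The gene lies on the plus strand of chromosome 6, from 97807052 to 98021349 (GRCm38), and the table holds 8 of its transcripts. Of these, 3 begin at 97807052 to 97807058, 2 at 97929799 to 97940918 and 3 at 97991792 to 97991921. In the deeper libraries the upstream group held 78.0% of the Mitf count, the middle group 3.91% and the downstream group 18.1%. In the shallower libraries the upstream group held 97.5% and the downstream group 2.52%. The downstream share was 31.5% and 19.4% in D32 DHA with FGF1, 18.3% and 7.16% in D32 LA with FGF1, and 13.7% and 25.8% in D32 BSA with FGF1, against 12.5% and 26.8% in D26 DHA, 11.2% and 17.5% in D26 LA, and 17.4% and 13.8% in D26 BSA. Both D32 DHA with FGF1 libraries lay above the D32 LA with FGF1, D26 LA and D26 BSA libraries, and they overlapped D32 BSA with FGF1 and D26 DHA. The middle group was at 0 in 9 of 12 deeper libraries and reached 22.0% in D26 LA replicate 1. The difference in start shares went with the set of libraries: replicate 3 of D32 LA with FGF1, which is shallower, had 1.18% downstream. The quantifier splits reads that transcripts share, and its part in these shares was not tested.

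Markers of the cells that make pigment were read beside these values. Of 14 RPE genes outside melanin synthesis, Rpe65, the visual cycle isomerase, was at 0 in 11 of 12 deeper libraries, and Rpe65, Best1, Tfec and Slc6a20a stayed under 1 CPM in all 12. The summed CPM of the 14 was 342 to 405 in D32 DHA with FGF1, 594.5 to 599 in D32 LA with FGF1, and 438 to 543 in D32 BSA with FGF1, against 156 to 172 in D26 DHA, 131 to 412 in D26 LA, and 81.2 to 330.4 in D26 BSA. Rlbp1, a retinoid carrier also made by Müller glia, makes up most of the sum in D32 DHA with FGF1. Without it, the other 13 genes summed to 37.5 to 45.4 CPM in D32 DHA with FGF1, 206 to 282 in D32 LA with FGF1, and 37.9 to 203 in D32 BSA with FGF1, against 80.8 to 85.7 in D26 DHA, 40.1 to 282 in D26 LA, and 37.2 to 232 in D26 BSA. Between the stages in DHA, the sum was thus higher with Rlbp1 and lower without it. Rlbp1 rose by 2.04 on the log2 scale in DHA (edgeR adjusted p = 0.00259) and Stra6, the retinol-binding protein receptor, fell by 2.49 (adjusted p = 0.00179). These were 1 higher and 1 lower of 10 genes tested, where 6.08% of all genes were higher and 4.28% lower; the median of the 10 was 0.00. Ttr, the thyroxine carrier of RPE and choroid plexus, had 0.326 and 0.443 CPM in D32 DHA with FGF1, 200.3 and 138 in D32 LA with FGF1, and 142 and 1.69 in D32 BSA with FGF1, against 28.6 and 36.8 in D26 DHA, 209 and 0.324 in D26 LA, and 177 and 0.114 in D26 BSA. Its lowest values were in D26 BSA replicate 2, D26 LA replicate 2 and the DHA libraries with FGF1, and its fold in DHA did not pass (-6.40, edgeR adjusted p = 0.226). The part of RPE content in the pigment values was not tested.

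Of 9 melanocyte and neural crest genes, 8 were tested and 0 changed in DHA between the stages by edgeR. Ednrb, the endothelin receptor, had 0.92 (adjusted p = 0.212) and Mia -1.64 (adjusted p = 0.373) on the log2 scale. At an unadjusted p under 0.05, 0 passed in DHA (24.9% of all genes did). Between the stages in LA, 1 of the 8 was higher by edgeR (3.34% of all genes were), and averaged over media 1 was higher (14.6% of all genes). Sox10, the neural crest factor, was at 0 to 10.0 CPM over the deeper libraries, highest in D32 LA with FGF1 replicate 2, and Foxd3 stayed under 1 CPM. The summed CPM was 65.3 to 105 in D32 DHA with FGF1, 92.8 to 147 in D32 LA with FGF1, and 64.7 to 81.6 in D32 BSA with FGF1, against 68.0 to 79.7 in D26 DHA, 69.7 to 76.9 in D26 LA, and 66.5 to 75.2 in D26 BSA. D32 LA with FGF1 lay above the D32 BSA with FGF1 and D26 groups, and D32 DHA with FGF1 overlapped it.

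No gene of the wider melanosome machinery passed as lower in DHA. Of 22 genes for melanosome biogenesis and transport, all tested, 3 rose and 0 fell in DHA between the stages by edgeR, where 6.08% of all genes rose and 4.28% fell: Lyst, a lysosomal trafficking regulator, by 0.98 (adjusted p = 0.00179), Mreg, melanoregulin, by 1.65 (adjusted p = 0.00202), and Hps3, of the BLOC-2 complex, by 1.27 (adjusted p = 0.00796). The median log2 fold change of the 22 was 0.08. Gpnmb, a melanosomal glycoprotein akin to Pmel, had -3.87 (adjusted p = 0.0961). It had 4.46 and 1.84 CPM in D32 DHA with FGF1, 91.4 and 17.6 in D32 LA with FGF1, and 20.3 and 3.23 in D32 BSA with FGF1, against 45.0 and 48.3 in D26 DHA, 73.9 and 4.27 in D26 LA, and 36.1 and 4.88 in D26 BSA, which is near the layout of Pmel. Averaged over media, 6 of the 22 rose (14.6% of all genes did) and 3 fell (14.1% of all genes).

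Factors that set the fate of the optic cup changed between the stages as well. Of 12 such genes, 1 rose and 4 fell in DHA by edgeR, where 6.08% of all genes rose and 4.28% fell: Pax6 fell by 0.96 (adjusted p = 0.0151), Otx1 by 2.79 (adjusted p = 0.0376), Lhx2 by 0.68 (adjusted p = 0.0383) and Six6 by 0.73 (adjusted p = 0.0471). Of 10 ciliary margin genes, 9 were tested and 4 fell (4.28% of all genes did), among them the gap junction gene Gja1 by 2.75 (adjusted p = 0.0176), Zic1 by 1.71 (adjusted p = 0.0267) and Bmp4 by 1.60 (adjusted p = 0.0303), and the fourth was Otx1, which both lists hold. Of 12 rod genes, 9 rose (6.08% of all genes did), with the rod factor Nrl at 0.84 (adjusted p = 0.0158). The summed rod CPM was 12179 to 15518 in D32 DHA with FGF1, against 5453 to 5456 in D26 DHA. The summed CPM of 12 mesenchyme genes was 114 to 317 in D32 DHA with FGF1. It was 441 to 665 in D32 LA with FGF1 and 126 to 164 in D32 BSA with FGF1. At D26 it was 97.9 to 148 in DHA, 139 to 198 in LA and 97.8 to 153.5 in BSA. For D32 with FGF1 without Fn1, fibronectin, it was 66.7 to 105 in DHA, 187 to 581 in LA and 74.8 to 105 in BSA. D32 LA with FGF1 was thus the high group, and D32 DHA with FGF1 overlapped D32 BSA with FGF1. For DHA against LA with FGF1, 0 of the 12 passed by edgeR (0.00994% of all genes did), 9 were lower at an unadjusted p under 0.05 (5.01% of all genes), and Col3a1 had -4.54 (adjusted p = 0.178) and Dcn -6.12 (adjusted p = 0.215). For LA against BSA with FGF1, 0 passed by edgeR and 11 were higher at an unadjusted p under 0.05 (2.89% of all genes). For DHA against BSA with FGF1, 0 were lower at that level (1.78% of all genes). The part of these cell types in the pigment values was not tested.

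**Figure D5:**
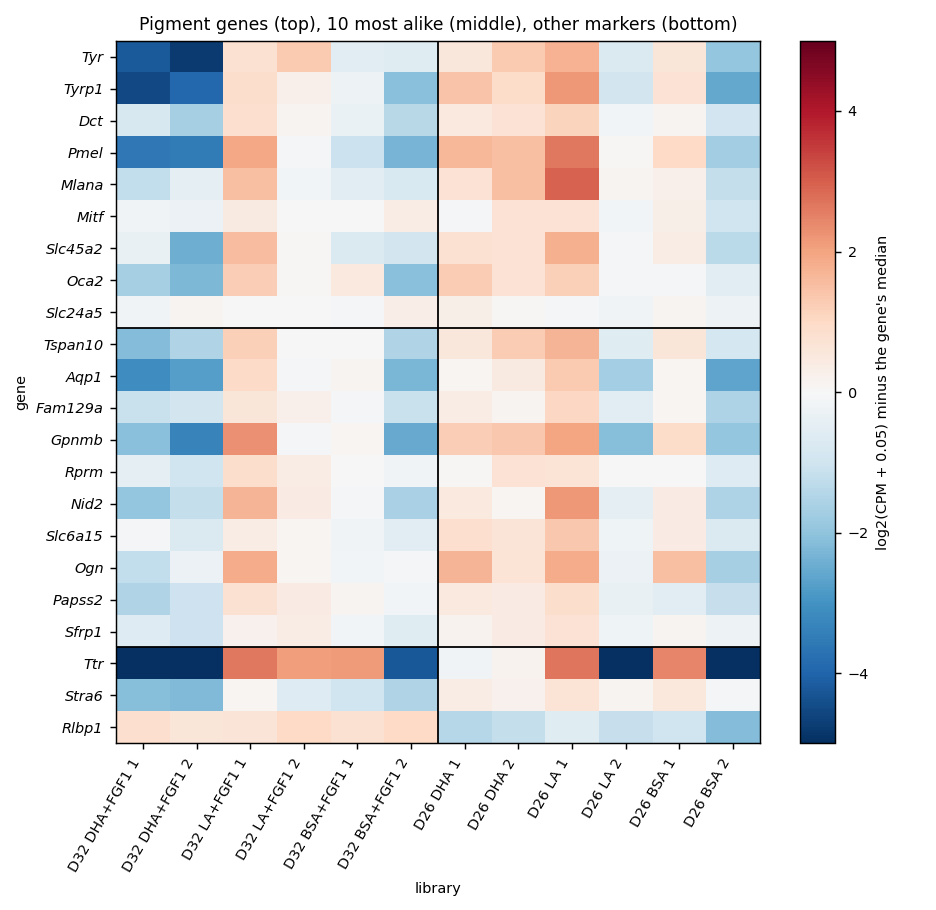
Level of each gene (rows) in the 12 deeper libraries (columns, D32 with FGF1 left of D26), as log2(CPM + 0.05) minus the median of the gene, with colours limited to 5 either way, which cuts off lower values of Ttr. The top block holds 9 pigment genes, the middle block the 10 genes most alike in pattern and the bottom block Ttr, Stra6 and Rlbp1; D32 DHA with FGF1 is blue for Tyr, Tyrp1 and Pmel in both libraries.

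Genes with the pattern most like the pigment genes were found by Pearson's r, over the 12 deeper libraries, between log2 CPM and the mean z-score of the 9 tested members. Ranked were 13186 genes other than the members whose mean log2 CPM reached 1. Predicted-gene names (Gm followed by digits, or ending in Rik) were left out. The libraries share 6 groups and their depth, so r is a description. The 10 highest were Tspan10 (r = 0.943), a tetraspanin, Aqp1 (0.941), a water channel, Fam129a (0.927), Gpnmb (0.923), Rprm (0.914), Nid2 (0.910), a basement membrane nidogen, Slc6a15 (0.906), an amino acid transporter, Ogn (0.903), Papss2 (0.895), which makes the sulfate donor, and Sfrp1 (0.895), a secreted Wnt antagonist. In the 11 shallower libraries, which the ranking did not use, r was taken against the mean z-score of the 7 members tested there. It was 0.948 for Gpnmb, 0.889 for Fam129a, 0.842 for Sfrp1, 0.795 for Aqp1 and 0.757 for Papss2. The others had 0.754 for Slc6a15, 0.749 for Ogn, 0.698 for Tspan10, 0.657 for Nid2 and 0.320 for Rprm. Among the members themselves r in the deeper set was 0.963 for Pmel, 0.960 for Tyrp1, 0.933 for Dct, 0.909 for Tyr, 0.756 for Mitf and 0.235 for Slc24a5, each being part of the mean. In DHA between the stages, Papss2 fell by 1.76 (edgeR adjusted p = 0.0326) and Sfrp1 by 1.11 (adjusted p = 0.0391), where 4.28% of all genes were lower. Tspan10 had -2.83 (adjusted p = 0.0572). The mean z-score used for the ranking was -1.09 and -1.18 in D32 DHA with FGF1, against 0.716 and 0.811 in D26 DHA. Falls of the ranked genes between these groups are therefore largely built into the ranking and are no separate result.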

How the data were processed

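RNA was sequenced from 23 libraries of mouse retinal organoids in 9 groups. The submitters' processing notes name kallisto 0.45.0, Trimmomatic 0.36, edgeR without a version and the build GRCm38.p6; the order of steps and the use of strand are not given in the sources used here. The values in the gene and in the transcript table, as deposited, are expected counts, that is, estimates with decimals, which were rounded to whole numbers for the tests. The other deposited table is a signal, CPM normalized by the authors, for 18 libraries; it was used for gene names, positions and which 5 libraries the authors left out. Gene counts and the sums of their transcripts differed for single genes.

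The main test was edgeR 4.0.16 (quasi-likelihood, filterByExpr, TMM, 1 mean per group, Benjamini-Hochberg adjusted p under 0.05), fitted on all genes within the 12 deeper (20111 genes) and the 11 shallower libraries (19484 genes) separately. An SE is the log2 fold change over the root of F, and 95% intervals use Student's distribution. limma 3.58.1 (voom), DESeq2 1.42.0, R 4.3.3, Python 3.11.15, pandas 2.3.3 and matplotlib 3.10.9 were used, and scripts were tested on simulated data. Alternatives were RLE scaling, no filter, DESeq2, voom, a replicate block, transcript sums, all 23 libraries in 1 fit, and each library left out in turn. The 10 genes and the lists were chosen with earlier results of these data known. Named from each list are up to 4 genes with the smallest p among those past the test, or the 2 smallest where none passed, and the 10 genes of highest likeness; the Ttr, Sox10, Foxd3, Rpe65, Gpnmb and Otx1 values, where outside this rule, were chosen after they were seen. The labels call replicates biological but name no separate cultures, so p-values may measure technical spread; no 2 libraries of a group agreed within sampling noise (chi-square per degree of freedom 11.53 to 260.3). Same-numbered replicates of D32 DHA and D32 LA without FGF1 deviated together for every number (correlations of 0.262, 0.593 and 0.397 over genes). Some other groups had correlations of like size, such as 0.351 for D32 BSA with FGF1 and D32 DHA with FGF1. Whether any replicates are paired is therefore not settled, and the main fit pairs none. Single genes that the naming rule would add are not reported here. TPM came from transcript lengths for 134551 of 136550 transcripts.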

Additional observations from a re-analysis of the deposited data

Results flagged for a closer look

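The difference between DHA and BSA in Tyrp1, Dct and Pmel had opposite signs at D26 and D32, but none of these differences passed edgeR's test. DHA and BSA libraries did not overlap, except for Dct at D32 with FGF1, where they did. These genes were flagged for this pattern, and the share of all genes with it was not counted. Singly, DHA lay wholly above BSA at D26 for 12.3% of all genes. It lay wholly below BSA for 15% at D32 with FGF1 and for 2.86% at D32 without FGF1. The log2 fold change of DHA over BSA for Tyrp1 was -3.41 at D32 with FGF1 and -2.77 at D32 without FGF1, against 1.32 at D26. For Pmel it was -2.00 at D32 with FGF1 and -3.16 at D32 without FGF1, against 1.38 at D26. For Dct it was -1.22 at D32 without FGF1, against 0.92 at D26. The D26 values rest on a spread pair of BSA libraries. Without D26 BSA replicate 1 they were 3.78 for Tyrp1, 3.33 for Pmel and 1.57 for Dct, and without replicate 2 they were 0.45 for Tyrp1, 0.57 for Pmel and 0.47 for Dct. Within the deeper libraries the difference for Tyrp1 and Pmel was tested as an interaction in edgeR and did not pass, with an adjusted p of 1.00 for each. Between the deeper and shallower libraries the difference was not tested, since these sets differ in depth. No group has 4 or more libraries within a set, so single libraries were not screened as outliers.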

How the results depend on the processing

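Counts were the same within 1.5 times under 104 of 122 alternatives, which cover the 16 comparisons and the order of the members by level (TMM against RLE scaling changed none). Only the comparisons between stages averaged over media and in DHA had calls in the main fit. Most unchanged counts are therefore 0 that stayed 0, and the calls that were made depended more on the processing. Averaged over media, the 3 calls between stages became 5 without the filter on low counts, 1 by voom, 5 with the replicate block and 1 with all 23 libraries in 1 fit, and 2 to 5 with a library left out. The 5 calls in DHA became 0 by voom, 3 from transcript sums, 0 with all 23 libraries and 0 to 5 with a library left out. The calls between stages in BSA, 0 in the main fit, became 1 without the filter. Without the filter, 0 calls became 3 at D26 for DHA against BSA, 3 at D26 for LA against BSA, and with FGF1 4 for LA against BSA, 3 where DHA was set against BSA and 5 where it was set against LA, 5 and 4 for the interactions with LA and with BSA, and 1 for DHA against BSA without FGF1. That fit gives each gene's own spread little or no weight (prior degrees of freedom infinite in the deeper and 32.07 in the shallower set, against 5.657 and 4.914 with the filter). DHA against LA with FGF1 had 3 calls by DESeq2 and 1 with the replicate block. With the block, no other count of members changed. Whether same-numbered deeper replicates are paired is not settled (correlations of -0.12 to 0.35), and a crossed pairing of DHA and LA at D26 called 0 members. Signs turned only for values that did not pass: between stages Tyr in BSA (0.091 by voom, 0.94 with all 23 libraries, -1.21 to 1.35 with a library left out), Tyr in LA (-0.20 from transcript sums, -0.060 with all 23, -0.70 to 1.80), Pmel in BSA (-2.62 to 0.13), Pmel in LA (-1.91 to 1.19), Slc24a5 in DHA (0.019 from transcript sums) and Mitf over media (-0.26 to 0.16). With FGF1 over none they turned for Tyr (0.21 by voom, 1.00 with the block, -0.50 to 0.90), Pmel (0.16 with the block, 0.55 with all 23) and Mitf (-0.35 to 0.039), and for LA over BSA without FGF1 for Tyr (-2.44 to 0.011). The causes were not tested. Over all genes, calls between stages were 5773 averaged over media (2001 with all 23 libraries), 1373 in BSA (2665 without the filter, 2163 by DESeq2, 2418 by voom, 276 with all 23), 1037 in LA (2361, 1723, 636 and 188) and 2083 in DHA (3306 without the filter, 236 with all 23). DHA against LA with FGF1 called 2 genes (528 without the filter, 152 by DESeq2, 20 with the block, 0 from transcript sums), LA against BSA with FGF1 3 (367 and 41), and the interaction with LA 0 (332 and 69). The other deeper comparisons called 0, and 59 to 128 without the filter. FGF1 over none called 0 (7 without the filter, 14 by DESeq2, 43 with the block and 2951 with all 23 libraries, where depth set and FGF1 overlap), and the other shallower comparisons 0, with at most 8 under any alternative. Depth limits Gpr143, Mlana and Slc45a2, which had under 31 counts in every library.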
